A study of Mus musculus with 89 samples.

Results

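Litters within the Ts65Dn mouse colony were compared by the forebrain expression of their embryos. The 41 arrays labelled Ts65Dn or EupTs65Dn were taken from the 89 arrays of the series, and they fell into 6 litters: TS11, TS113, TS125, TS18 and TS42 with 7 embryos each, and TS137 with 6. Each probe set was tested for a difference among the litters with genotype as a covariate, and genes of developmental stage, brain region and blood were then read out by litter. The series itself asked what the genes of mouse chromosome 17 (Mmu17) add in the Ts65Dn model of Down syndrome, which carries them in 3 copies although they have no counterpart on human chromosome 21. The other 48 arrays belonged to the Ts66Yah colony and were used here only as a second set of litters.

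All 41 samples were total RNA of whole forebrain at embryonic day 18.5, without treatment, and 1 array was run per embryo. The 23 Ts65Dn embryos had an additional minichromosome made of the distal end of Mmu16 (mouse chromosome 16) and the proximal end of Mmu17, and the 18 EupTs65Dn embryos were their euploid littermates. Every embryo had a trisomic Ts65Dn mother and a B6EiC3Sn.BLiAF1/J father, so euploid embryos too had developed in trisomic mothers, on a mixed background of C57BL/6 and C3H alleles. TS11 held 3 euploid and 4 trisomic embryos, TS113 held 4 and 3, TS125 held 3 and 4, TS137 held 3 and 3, TS18 held 3 and 4, and TS42 held 2 and 5. Litter, mother, day of dissection and any shared handling cannot be told apart in this design.

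Embryos of a litter share a mother, a moment of conception and usually a day of dissection. A litter that was older than another by hours would differ in genes of glial and neuronal maturation, which climb steeply in the mouse forebrain around birth, and in genes of dividing progenitors. A dissection that took along more thalamus, choroid plexus or hindbrain would carry the marker genes of those tissues, and blood left in the vessels would carry globin and other red cell genes. In a mixed background littermates also share parental alleles, and in stretches of the genome where strains differ in gene copies these can set the level of neighbouring genes.

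The arrays were alike in scale: the mean log2 signal of an array lay between 5.26 and 5.33, and its standard deviation between 2.42 and 2.53. Sex labels were checked with Kdm5d, Uty and Eif2s3y, which lie on the Y chromosome, and 8 of the 41 arrays did not match, 2 each in TS113, TS125 and TS137 and 1 each in TS18 and TS42. In 1 embryo labelled Ts65Dn, embryo 7 of TS18, the mean of 33 Mmu16 genes was 7.96, near the euploid median of 7.98 and away from the trisomic median of 8.44. Forebrain markers were high: Fabp7 of radial glia had a mean of 12.2, Neurod6 of cortical neurons 11 and Tbr1 of the deep cortical layers 9.20. Adult globins were not analysed here, so blood was read from other genes.

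Litters differed at 84 of 22206 probe sets (limma's moderated F test, adjusted p under 0.1 with Benjamini-Hochberg adjustment), which is 0.378% of those tested, while 10.7% had an unadjusted p under 0.05. Of these 84, 20 came from a multicopy gene cluster on chromosome 4, counted with the unplaced scaffolds of that chromosome, and 8 were core and linker histone genes. The others were spread over the genome, some of them as small groups of neighbouring probe sets. Set against the mean of the other 5 litters, TS113 differed at 67 probe sets (0.302%), 59 of them lower, and TS18 at 49 (0.221%), 35 of them lower. TS42 differed at 33 (0.149%), TS11 at 6 (0.027%) and TS137 at 3 (0.0135%). For TS125 limma called 0 probe sets (0%), with 1225 at an unadjusted p under 0.05. The count of 84 was 49 without TS113, 47 without TS42, 151 without TS125 and 35 without the 8 arrays whose Y-linked genes went against the label.

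Genes of stage, region and blood did not pass the test between litters. Of 516 probe sets for these genes in 25 lists, limma's F test called 0, against 0.378% of all probe sets, and 51 (9.88%) had an unadjusted p under 0.05, against 10.7% of all. The median gap between the highest and the lowest litter mean was 0.347 on the log2 scale, against 0.315 over all probe sets. By theme, 13% of the 161 stage genes, 10.1% of the 228 region genes and 7.64% of the 144 blood genes had an unadjusted p under 0.05. Some genes count in more than 1 theme. In 11 other settings between 0 and 5 of these genes passed: Bcl11b passed in 7 of them, Aqp4 in 6, Dlx5, a factor of forebrain interneurons, in 4, the mitotic kinase Cdk1 in 3 and the platelet receptor Gp5 in 1. With a trended and robust prior 5 of 516 passed (0.969%), against 1.61% of all probe sets, and with probe sets under the median signal left out 4 of 252 (1.59%), against 3.13%.

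**Figure D1:**
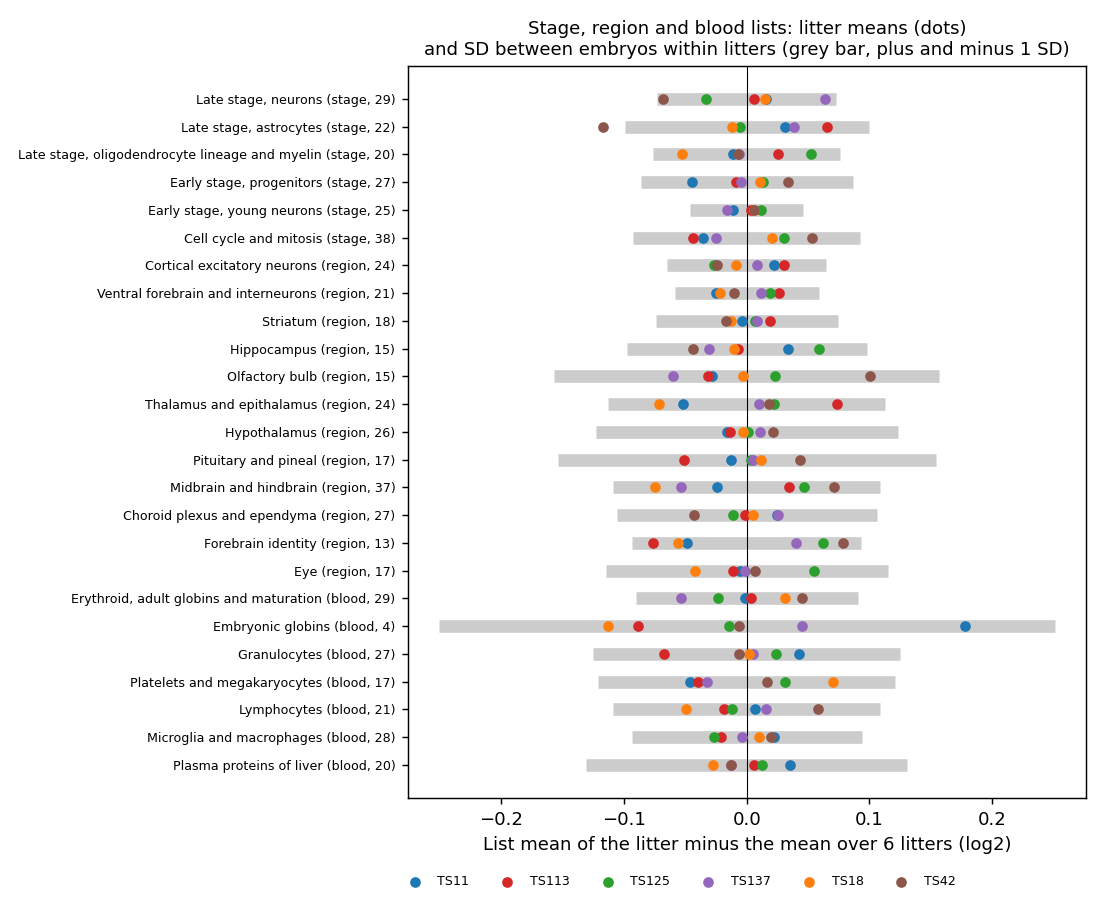
Mean log2 signal of each gene list by litter, relative to the mean of the 6 litters. Points are litter means and grey bars reach 1 standard deviation between littermates to each side; most points lie within the bars, and the embryonic globins spread furthest, over 0.291 between TS11 and TS18.

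Among the stage lists the astrocyte genes had the widest span between litters. Their mean was highest in TS113 (7.40) and lowest in TS42 (7.21), a range of 0.181 against a standard deviation of 0.0994 within litters. Aqp4, the water channel of astrocyte endfeet, ran from 5.59 to 6.63 with a median of 6.02 in TS42, and from 6.56 to 7.12 with a median of 6.75 in TS137. The values of TS42 overlapped those of TS137 only at their edge. Its adjusted p over all litters rounded to 0.1 and did not pass, but in the contrast of TS42 with the others it fell by 0.629 (SE 0.122, n = 7 against 34 embryos, limma adjusted p = 0.027). Gfap, the intermediate filament of astrocytes, ran from 4.23 to 5.77 with a median of 5.17 in TS42 and from 5.52 to 6.41 with a median of 6.17 in TS11 (limma adjusted p = 0.25).

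The other stage lists spanned less between their highest and lowest litters. The list of young neurons spanned 0.0278, the progenitor list 0.0781, the cell cycle list 0.0975 and the myelin and oligodendrocyte list 0.105. The list of maturing neurons spanned 0.132, against a standard deviation of 0.0728 within litters. TS42 had the lowest mean of the maturing neuron list (7.40) and the highest of the progenitor (6.33) and cell cycle (6.30) lists. TS42 lay at neither end of the young neuron and myelin lists. An unadjusted p under 0.05 (limma) was found in 5 of 20 myelin and oligodendrocyte and 7 of 38 cell cycle probe sets. It was found in 3 of 29 maturing neuron, 1 of 27 progenitor and 1 of 25 young neuron probe sets, against 10.7% of all. Mbp, the myelin basic protein, had litter medians from 5.06 to 5.48, and its adjusted p was 0.87. Mki67, the antigen of dividing cells, had litter medians from 7.44 to 7.79 (limma adjusted p = 0.87), and Top2a, the topoisomerase of dividing cells, had medians from 5.77 to 6.38 (limma adjusted p = 0.52). In each of these genes every litter overlapped every other.

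The lists of brain regions had like spreads. Bcl11b, a transcription factor of deep-layer cortical and striatal neurons, ran from 8.28 to 8.57 with a median of 8.34 in TS18 and from 8.62 to 9.04 with a median of 8.75 in TS137. Those litters did not overlap. Over all litters its adjusted p rounded to 0.1 and did not pass, and in the contrast of TS18 with the others it fell by 0.252 (SE 0.0583, limma adjusted p = 0.075). Tcf7l2, a Wnt effector that marks the thalamus, had litter medians from 10.2 to 10.6 (limma adjusted p = 0.29), and the thalamic list spanned 0.145. Ttr, the transthyretin made by choroid plexus, had litter medians from 11.5 to 11.6 (limma adjusted p = 0.88). En2, a midbrain and hindbrain homeobox gene, lay at a low level with medians from 3.62 to 3.95 (limma adjusted p = 0.73). Tfap2b, a transcription factor of neural crest, midbrain and hindbrain, had the widest gap between litter means among the region genes, from 3.92 in TS18 to 5.81 in TS113, but its embryos scattered from 2.78 to 6.76 and it did not pass (limma adjusted p = 0.21).

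Blood genes did not pass either. Alas2, the red cell enzyme that starts heme synthesis, ran from 4.68 to 5.72 with a median of 5.25 in TS113 and from 5.64 to 6.14 with a median of 5.96 in TS42 (limma adjusted p = 0.32). The embryonic globins were low: Hbb-y had litter medians from 1.67 to 2.47 (limma adjusted p = 0.60) and Hbb-bh1 from 1.72 to 1.99 (limma adjusted p = 0.98). The granulocyte genes S100a8 and S100a9 had medians from 2.26 to 2.75 and from 2.70 to 3.25 (limma adjusted p = 0.79 and 0.71). The list of red cell maturation spanned 0.0989 between litters, with the highest mean in TS42 (5.10), and the list of microglia and macrophages spanned 0.0485.

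The largest difference between litters lay on chromosome 4. Gm3893, a predicted gene of the cluster, ran from 2.77 to 7.43 with a median of 3.33 in TS18 and from 3.08 to 7.11 with a median of 4.13 in TS113. In the other litters it ran from 5.58 to 8.04, with medians of 7.71 in TS11, 7.68 in TS125, 7.46 in TS137 and 7.19 in TS42. So TS18 and TS113 each held both low and high embryos. The other 4 litters held high ones, apart from embryo 3 of TS42, which lay in between at 5.58. Its litter means spanned 3.28 on the log2 scale, a 9.71-fold difference between TS11 and TS18 (limma adjusted p = 0.00098). TS18 lay 2.54 below the mean of the other litters (SE 0.451, adjusted p = 0.011) and TS113 lay 1.94 below (SE 0.455, adjusted p = 0.063).

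**Figure D2:**
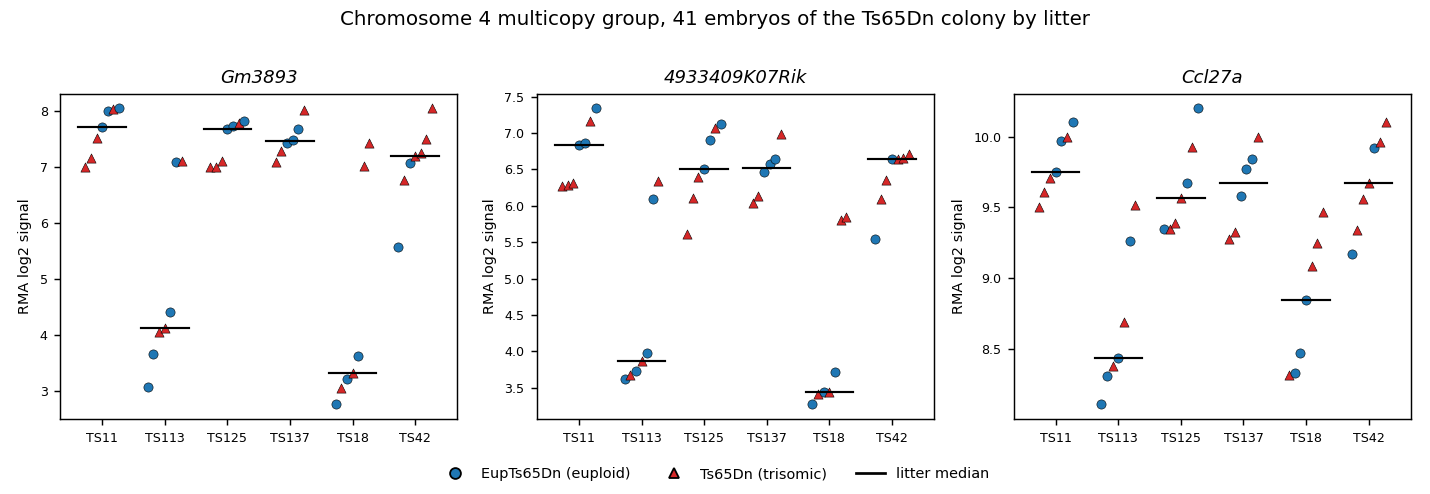
Log2 signal of Gm3893, 4933409K07Rik and Ccl27a in each embryo, by litter. Points are embryos, marked by genotype, and bars are litter medians. For Gm3893, 5 embryos of TS113 and 5 of TS18 lie at or under 4.41, and the 31 others lie at 5.58 or above.

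The low level of Gm3893 belonged to embryos rather than to whole litters. In TS113 embryos 2, 3, 4, 5 and 7 lay at 3.08, 4.41, 3.66, 4.05 and 4.13, while embryo 1 lay at 7.11 and embryo 6 at 7.09. In TS18 embryos 1, 3, 4, 5 and 6 lay at 3.22, 2.77, 3.63, 3.33 and 3.06, while embryo 2 lay at 7.02 and embryo 7 at 7.43. No value fell between 4.41 and 5.58. The embryo at 5.58, embryo 3 of TS42, was also set off from those above it, since the next lay at 6.77. Low embryos were found among euploid and trisomic littermates alike: 6 of the 10 were euploid.

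The other probe sets grouped with Gm3893 that passed followed the same embryos. By identifier, 48 probe sets were counted as the cluster, with every unplaced scaffold of chromosome 4 taken in, whether or not it belongs there. Of these 20 passed, 9 without a gene name and 6 on scaffolds. By reference gene order LOC100861978 (gene 10 of chromosome 4) and 4933409K07Rik (gene 15) lay away from Ccl27a (gene 183) and Fam205a1 (gene 201). Only 18 of the 20 are distinct, since 4933409K07Rik and LOC100861978 each share identical values with an unnamed probe set, and the counts here and below include both of each pair. In all 20 both TS113 and TS18 lay below the other 4 litters, and the gap between the highest and the lowest litter ran from 0.784 to 3.28. The 10 embryos with the lowest Gm3893 were also the 10 lowest in 12 of the 20, Gm3893 itself included, and at least 8 of them were in each of the 20. These 20 were picked by their litter differences, so high sharing was in part given by that choice. Probe sets of the group that did not pass shared from 1 to 8 of the 10 embryos, with 8 in Gm13304 and 4 in Ccl19. Where the cluster holds near-identical copies of a gene, the array cannot say which copy gave the signal. Sequences of the members were not compared here, and the group was delimited after its values were seen.

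Among the named members was Ccl27a, a chemokine that draws T cells to skin. It ran from 8.11 to 9.52 with a median of 8.44 in TS113 and from 8.32 to 9.47 with a median of 8.85 in TS18, against 9.17 to 10.2 in the other 4 litters. The 10 embryos with low Gm3893 lay beneath every embryo of the other litters, and the 4 remaining embryos of TS113 and TS18 lay at 9.25 or above. Ccl27a fell by 0.833 in TS113 (SE 0.155, limma adjusted p = 0.0064), a gap of 2.19-fold between TS11 and TS113. 4933409K07Rik, a RIKEN cDNA gene, had the smallest p of all named genes (limma adjusted p = 0.00024) and lay 6.02-fold higher in TS11 than in TS18. The other named genes that passed were Fam205a1, Fam205a2, Fam205a3, Fam205a4, Gm21953, Gm10591 and LOC100861978. Gm10591 passed at a scaffold probe set (limma adjusted p = 0.043) but not at another of its probe sets (limma adjusted p = 0.42).

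Gm3893 also fell into a lower and an upper group of embryos in the Ts66Yah colony. In 17 of its 47 arrays with the usual spread Gm3893 lay at or below 5.58, and in the rest at or above 7.21. Both levels occurred within 5 of its 6 litters, and in litter WT13 all 8 embryos were high, from 8.60 to 9.69. The low embryos were 7 euploid and 10 trisomic. The F test over those litters gave an unadjusted p of 0.010 and an adjusted p of 0.28 for Gm3893 (limma). The absolute levels of the 2 colonies are not compared, because they lie at different levels throughout.

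**Figure D3:**
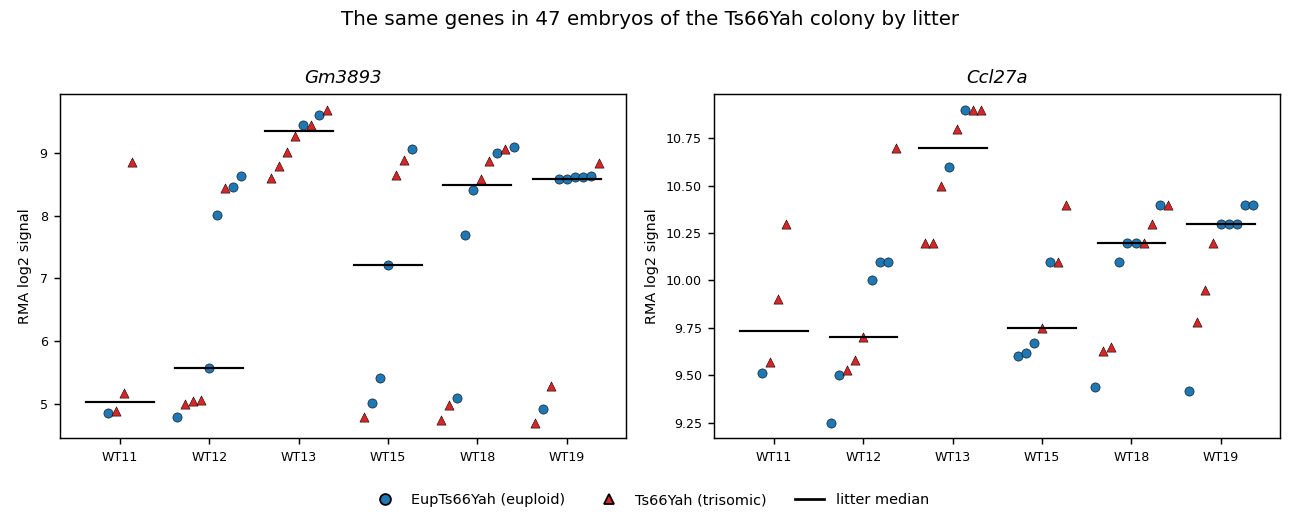
Log2 signal of Gm3893 and Ccl27a in each embryo of the Ts66Yah colony, by litter, without the low-spread array. Points are embryos and bars are litter medians. Gm3893 splits into values at or below 5.58 and at or above 7.21, and WT13 holds only the upper level.

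Histone genes were the second group, and TS113 was the litter that stood apart. The family of replication-dependent histones packs new DNA: the H2a, H2b, H3 and H4 proteins form the nucleosome core and H1 binds the linker between cores. Their genes lie in clusters, mostly on chromosomes 13 and 3, and are made chiefly while DNA is copied, from messages that end in a stem-loop in place of a poly(A) tail. Many H2a and H2b genes share a promoter element, the octamer ATTTGCAT, which is bound by the factor Oct1. The promoters of the 3 H2b genes with the smallest p are shown because their levels fell together in TS113. Each line gives the 120 bases before the RefSeq start site, on the plus strand of GRCm38.p6, with the octamer in capitals.
H2bc14: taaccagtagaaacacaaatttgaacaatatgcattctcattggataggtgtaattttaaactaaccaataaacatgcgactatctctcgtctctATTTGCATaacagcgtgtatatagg
H2bc18: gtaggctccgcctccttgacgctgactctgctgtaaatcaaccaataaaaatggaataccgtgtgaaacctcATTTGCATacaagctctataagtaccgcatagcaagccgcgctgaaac
H2bc15: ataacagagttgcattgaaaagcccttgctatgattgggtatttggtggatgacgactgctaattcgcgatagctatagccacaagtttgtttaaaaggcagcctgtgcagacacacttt
These stretches lie at chr13:21721924-21722043 for H2bc14, chr3:96269580-96269699 for H2bc18 and chr13:21753956-21754075 for H2bc15. The octamer begins 25 bases before the start of H2bc14 and 48 before that of H2bc18, and these letters are not in the window of H2bc15. In the 250 bases before the start, searched on both strands, it was found in 6 of 13 measured H2bc genes (46.2%) and 6 of 13 H2ac genes (46.2%), in 0 of 10 H4c and 0 of 8 H3c genes, and in 490 of 27025 genes of all kinds (1.81%).

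H2bc14 ran from 7.68 to 8.29 with a median of 8.07 in TS113, and from 8.51 to 8.88 with a median of 8.80 in TS42. The embryos of those litters did not overlap, and the other 4 litters lay between them with medians from 8.36 to 8.51. H2bc14 fell by 0.509 in TS113 (SE 0.0869, n = 7 against 34, limma adjusted p = 0.0031) and rose by 0.398 in TS42 (SE 0.0871, limma adjusted p = 0.054).

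H2bc18, whose promoter also holds the octamer, ran from 6.94 to 7.82 with a median of 7.52 in TS113, and from 7.86 to 8.54 with a median of 8.24 in TS137. These litters did not overlap either. H2bc18 fell by 0.506 in TS113 (SE 0.0880, limma adjusted p = 0.0031), and its highest litter lay 1.68-fold above its lowest. H2bc15 ran from 8.54 to 9.26 with a median of 8.85 in TS113 and from 9.19 to 9.90 with a median of 9.46 in TS42. H1f1, a linker histone, ran from 7.07 to 7.91 with a median of 7.24 in TS113 and from 7.75 to 8.22 with a median of 8 in TS42. In both genes the 2 litters overlapped in their outermost embryos.

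**Figure D4:**
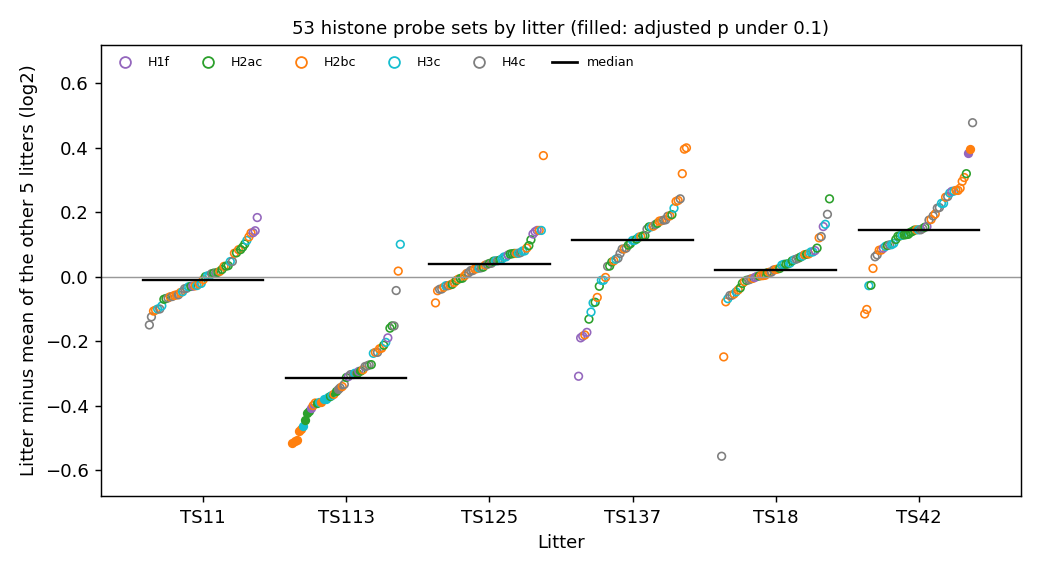
Difference of each of 53 histone probe sets from the mean of the other litters, by litter, in log2 units. Points are probe sets and bars are medians. Filled points passed in that litter's contrast. In TS113 51 of the 53 lie below 0 with a median of -0.312, and in TS42 49 lie above 0 with a median of 0.146.

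Most of the histone family lay low in TS113. Of 53 histone probe sets, 51 lay below the other litters in TS113, with a median difference of -0.312 against 0.00458 over all probe sets. In that contrast 21 of them passed as lower and 0 as higher, while 67 of all 22206 probe sets (0.302%) passed in either direction. By type, all 13 H2ac, 14 of 15 H2bc, 9 of 10 H3c, all 11 H4c and all 4 H1f probe sets lay below, with medians of -0.312, -0.388, -0.371, -0.278 and -0.301. TS42 lay at the other end, with 49 of 53 above the other litters, a median of 0.146 and 2 that passed as higher. In the TS42 contrast 33 of all 22206 probe sets (0.149%) passed in either direction. The F test over all litters called 8 of the 53, of which H3c14 and H3c15 hold identical values. It called 0.378% of all probe sets and 0.603% of those at or above the median level, where 51 of the 53 lay. An unadjusted p under 0.05 (limma) was found in 32 of the 53. The share was 10.7% of all probe sets and 14.6% of those at or above the median level. The family was picked out after these values were seen, so its counts describe and do not test.

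The lower histone level of TS113 was present in most of its embryos and in both genotypes. The mean over the 53 probe sets ran from 7.80 to 8.26 with a median of 7.93 in TS113. In TS42 it ran from 8.08 to 8.54 with a median of 8.32, and the other litters had medians from 8.13 to 8.25. The 6 lowest of the 41 embryos were all from TS113, and its seventh, embryo 2, lay among the other litters at 8.26. Among the 4 euploid embryos of TS113 52 of 53 probe sets lay below the other euploid litters, with a median of -0.302, and among its 3 trisomic embryos 49 did, with a median of -0.322. Without the 8 arrays whose Y-linked genes went against the label, 2 of them from TS113, 50 of 53 still lay below but 0 passed (limma), and H2bc18, H2bc15, H1f1 and H2ac22 no longer passed the F test (limma adjusted p from 0.13 to 0.51). H2ac22, the weakest of these, also lost its call without TS42 or without embryo 1, 3, 4, 6 or 7 of TS113. The cell cycle list, in which 0 of 38 probe sets passed, had means of 6.21 in TS113 and 6.30 in TS42, its lowest and highest litters. That range of 0.0975 stood against a standard deviation of 0.0926 within litters. TS11 had a cell cycle mean of 6.215, close to 6.207 in TS113, but its median histone difference was -0.00842. A link between the 2 groups of genes was not tested.

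Of the 59 probe sets that were lower in TS113, 21 were histones and 17 belonged to the chromosome 4 cluster. The 21 others, 16 of them with a gene name, included genes of mitochondrial proteins, whose share among them was not counted. Uqcr11, a subunit of mitochondrial complex III, ran from 5.99 to 6.19 with a median of 6.14 in TS113, while the other litters had medians from 6.37 to 6.51. It fell by 0.357 in TS113 (SE 0.0623, limma adjusted p = 0.0031), and its F test (adjusted p = 0.051) did not pass without embryo 2, 3 or 7 of TS113 (limma adjusted p from 0.12 to 0.14). Nor did it pass with quantile normalization, with a trended robust prior or without the 8 arrays (limma adjusted p = 0.11, 0.14 and 0.16). Another complex III subunit, Uqcr10, fell by 0.334, and Tomm7, part of the mitochondrial import pore, fell by 0.372. Both were picked out after their values were seen. Among 71 respiratory chain probe sets 1 passed the F test, against 0.378% of all probe sets. Their unadjusted p was under 0.05 in 20, against 10.7% of all probe sets and 14.6% of those at or above the median level. The mean of the list was lowest in TS113 (8.56) and highest in TS137 (8.74). The 8 higher probe sets of TS113 included Depp1, a gene induced by FOXO factors in fasting, which rose by 0.663 (SE 0.145, limma adjusted p = 0.035) and whose F test did not pass without the 8 arrays (limma adjusted p = 0.18). Depp1 was highest in TS137, at 0.719 above the other litters (SE 0.153), though that contrast did not pass (limma adjusted p = 0.13). Pik3r1, the regulatory subunit of phosphoinositide 3-kinase, rose by 0.245 in TS113.

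TS11 was lower at 5 probe sets, a pair of adjacent genes and 3 unnamed probe sets on chromosome 14. Alad, the enzyme that makes porphobilinogen in heme synthesis, ran from 7.05 to 8.23 with a median of 7.36 in TS11 and from 8.18 to 8.81 with a median of 8.54 in TS18. Hdhd3, a hydrolase-domain gene beside it on chromosome 4, ran from 4.32 to 5.03 with a median of 4.61 in TS11 and from 5.25 to 6.63 with a median of 6.55 in TS113. The embryos of TS11 lay under all of TS113 and TS18 for Hdhd3, and overlapped TS18 at the edge for Alad. Alad fell by 0.811 in TS11 (SE 0.134, limma adjusted p = 0.0068) and Hdhd3 fell by 1.13 (SE 0.210, limma adjusted p = 0.020). Without TS18 the F test of Hdhd3 rounded to an adjusted p of 0.1 and did not pass. In TS113 the embryos with the lowest Hdhd3, embryo 6 at 5.25 and embryo 1 at 5.33, were the same embryos that had the highest Gm3893. The 3 unnamed probe sets, close to each other by their identifiers, fell by 0.948, 0.952 and 1.01 in TS11 (limma adjusted p from 0.0068 to 0.017). Zfp960, a zinc finger gene, rose by 0.569 in TS11 (limma adjusted p = 0.032).

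**Figure D5:**
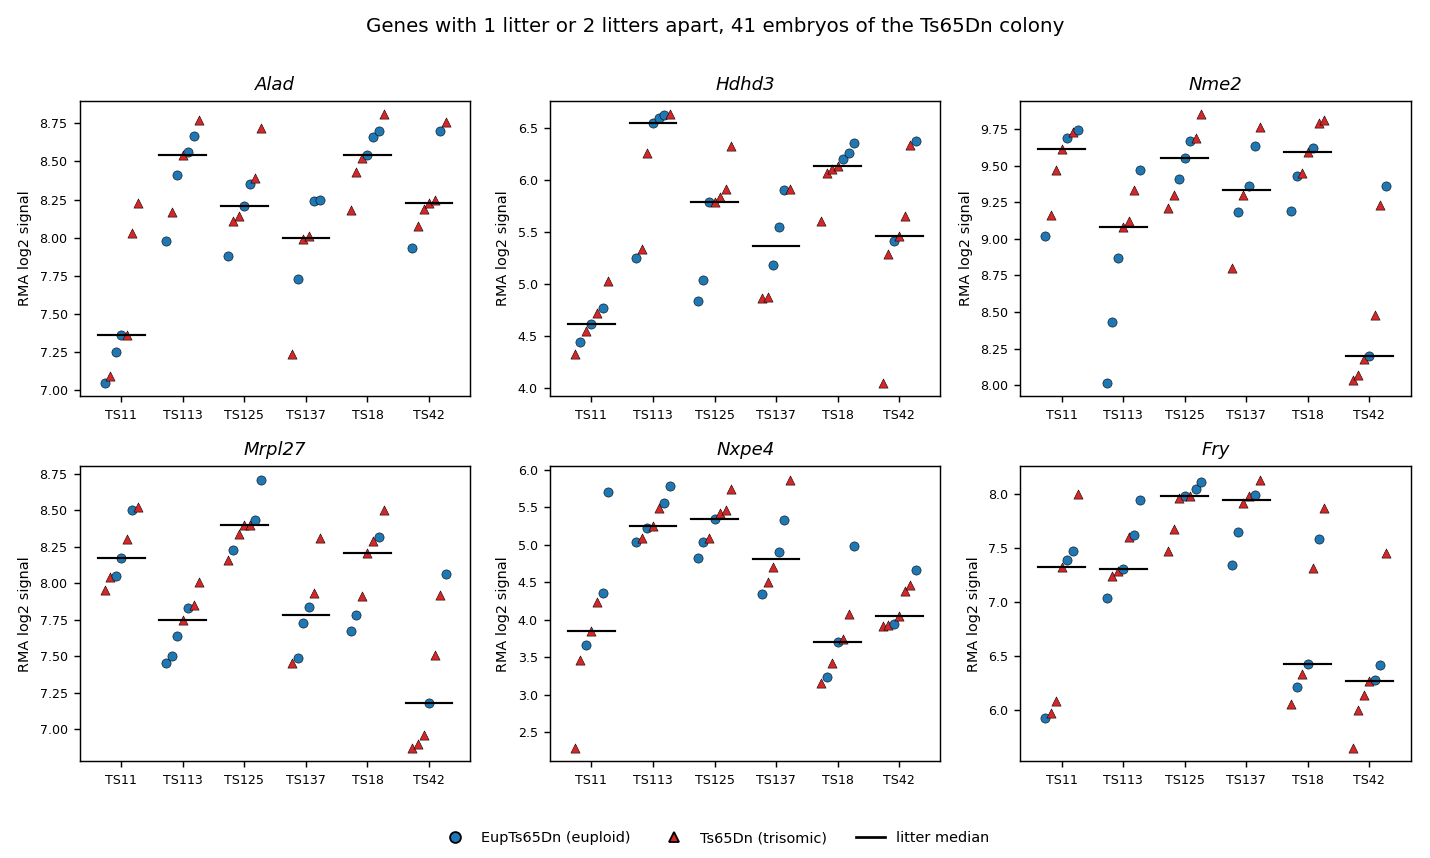
Log2 signal of Alad, Hdhd3, Nme2, Mrpl27, Nxpe4 and Fry in each embryo, by litter. Points are embryos, marked by genotype, and bars are litter medians. TS11 is low for Alad and Hdhd3, and TS42 is low for Nme2, Mrpl27 and Fry.

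TS42 was low at several genes. Nme2, a nucleoside diphosphate kinase, ran from 8.04 to 9.36 with a median of 8.20 in TS42, while the other litters had medians from 9.08 to 9.61. Mrpl27, a protein of the mitochondrial ribosome that lies 18 genes away from it on chromosome 11, ran from 6.87 to 8.06 with a median of 7.18 in TS42 and from 8.16 to 8.71 with a median of 8.40 in TS125. In both genes some embryos of TS42 reached the range of other litters. Nme2 fell by 0.864 in TS42 (SE 0.158, limma adjusted p = 0.015) and Mrpl27 fell by 0.705 (SE 0.128, limma adjusted p = 0.015). Fry, a large microtubule-associated scaffold protein, ran from 5.65 to 7.45 with a median of 6.27 in TS42 and from 7.47 to 8.11 with a median of 7.98 in TS125. These litters did not overlap, and Fry fell by 1.06 in TS42 (SE 0.228, limma adjusted p = 0.052). Stx6, a syntaxin of the trans-Golgi network, was higher: it ran from 9.08 to 9.37 with a median of 9.34 in TS42 and rose by 0.260 there (limma adjusted p = 0.027), though its F test did not pass without the 8 arrays (limma adjusted p = 0.16).

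Outside the chromosome 4 cluster 14 probe sets were higher and 19 lower in TS18, while 2 were higher and 1 lower in TS137. Nxpe4, of the neurexophilin and PC-esterase family, ran from 3.16 to 4.98 with a median of 3.71 in TS18 and from 5.04 to 5.78 with a median of 5.25 in TS113, with no overlap. It fell by 0.972 in TS18 (SE 0.232, limma adjusted p = 0.088), and TS11 was also low, with a median of 3.85. Tubb4b, a beta tubulin, rose by 0.299 in TS18, and Adgrl1, a synaptic adhesion receptor, fell by 0.262. In TS137 Immp1l, a peptidase of the mitochondrial inner membrane, ran from 6.95 to 7.60 with a median of 7.38 and rose by 0.538 (limma adjusted p = 0.082); its F test did not pass without the 8 arrays (limma adjusted p = 0.31). Nyx, a small leucine-rich protein of the retina, fell by 0.750 in TS137.

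One microRNA host passed as well. The probe set named Mir675 lies within the imprinted H19 transcript, from which the microRNA is cut, so the array cannot separate it from the host RNA. It ran from 8.24 to 8.97 with a median of 8.51 in TS42 and from 7.58 to 8.36 with a median of 7.83 in TS18, litters that overlapped by a narrow margin. The gap of 1.56-fold passed (limma adjusted p = 0.051), but it did not with sex as a covariate, without TS11, without TS113, without the 8 arrays or without any of 5 single embryos of TS18 and TS42 (limma adjusted p from 0.1 to 0.26).

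The chromosome 4 difference was also read out in each genotype alone. Among the 18 euploid embryos alone the F test called 20 probe sets (0.0901%), 15 of them in the chromosome 4 cluster; outside it were Ppdpf, Pisd-ps3, Scfd2, Tbc1d2 and 1 without a name. Among the 23 trisomic embryos alone it called 3 (0.0135%): Nxpe4, Vmn1r3 and 1 without a name. Of the 20 euploid calls 12 had an unadjusted p under 0.05 (limma) in the trisomic embryos, against 7.99% of all probe sets there. The trisomic embryos share no array with the euploid ones but are their littermates. Of those 12, 11 were in the chromosome 4 cluster, whose probe sets varied together, so they are not separate counts. Outside the cluster it was 1 of 5. The 3 trisomic calls included 0 with an unadjusted p under 0.05 in euploid embryos. The euploid count was 0 without TS125, 1 without TS18, 3 without TS11 and 10 without TS137.

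Whether the genotype difference itself changed from litter to litter was tested with an interaction term. The limma F test on that term called 0 of 22206 probe sets (0%), with 1673 at an unadjusted p under 0.05 and a smallest adjusted p of 0.17.

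Across colonies, 30 of the 84 probe sets (35.7%) had an unadjusted p under 0.05 between the litters of the Ts66Yah colony, against 11.5% of all probe sets. Outside the chromosome 4 cluster it was 12 of 64, among them Fry, H1f1, Immp1l, Tubb4b and Uqcr11. Probe sets of the cluster varied together, so they are not separate counts. Of the 84, 67 lay at or above the median level, and no share at that level was taken in the Ts66Yah colony. Without the low-spread array the F test in that colony called 20 probe sets, and with it limma called 0, with 860 at an unadjusted p under 0.05.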

How the data were processed

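Litters were compared within the 41 arrays of the Ts65Dn colony. The deposited log2 values are probe set signals of Clariom S arrays summarised by RMA, per the submitters' processing notes; the version and settings used, and how the array was annotated, are details not given in the sources used here. RMA's quantile step makes arrays alike in distribution, so a shift shared by most genes would not be seen. Of 22206 probe sets 19572 carried 1 gene symbol, 2634 had none and all were tested.

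limma 3.58.1 in R 4.3.3 fitted genotype and litter with default eBayes settings; the F test took the litter coefficients, and contrasts set each litter against the unweighted mean of the other 5 by a two-sided test. P-values were adjusted by Benjamini-Hochberg over the 22206 probe sets and read at 0.1. The same F test was run within each genotype and on the interaction. The fits were tested on simulated data. Precision is limited by the number of arrays, and p-values set differences between litter means against the spread between littermates. No dam had a further litter here, so they do not say how far another litter would differ.

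The members and gene lists were chosen with earlier results of these data known. Named genes were the 12 symbols with the smallest F p, up to 5 called members of each list or else the nearest one, up to 3 higher and 3 lower genes per litter past both tests, and a set of markers always given. The histone family, the chromosome 4 cluster, Uqcr10, Tomm7, Pik3r1, Tubb4b, Adgrl1, Fabp7, Neurod6, Tbr1 and the genes listed by name alone were named after their values were seen. Promoter windows came from RefSeq (GRCm38.p6). Embryo numbers did not pair embryos: over 89 pairs with the same number in 2 litters the mean correlation of deviations was 0.00132. Alternatives were the sex label, no genotype, the number as a block, 2 normalizations, array spread, filters on signal, a trended prior, weights, an ordinary F test, a threshold of 0.05 and each litter left out. Added after seeing the data were leaving out the 8 arrays against the sex label, TS18 embryo 7 or single embryos, and a Y-linked covariate.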

Additional observations from a re-analysis of the deposited data

Results flagged for a closer look

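In 19 of 282 groups, made of 47 genes by 6 litters, 1 embryo lay far from its littermates by Dixon's test; chance gives this in about 1 in 20 groups. An embryo lay far below its litter for H2bc18 in embryo 1 of TS11 (7.4, against 7.77 in the next), H2bc18 in embryo 1 of TS113 (6.94, against 7.46 in the next) and H2ac22 in embryo 1 of TS11 (10.2, against 10.5 in the next). Low outliers were also Hdhd3 in embryo 7 of TS18 (5.6, against 6.06 in the next), Depp1 in embryo 2 of TS125 (4.05, against 4.61 in the next) and Zfp960 in embryo 8 of TS137 (6.07, against 6.41 in the next). A far lower value was also seen for Mir675 in embryo 5 of TS137 (7.42, against 8.14 in the next), Uqcr11 in embryo 2 of TS18 (6.31, against 6.48 in the next) and Neurod6 in embryo 2 of TS125 (10.9, against 11.1 in the next). Lower too were Stx6 in embryo 5 of TS125 (8.94, against 9.11 in the next) and S100a8 in embryo 4 of TS137 (2.26, against 2.72 in the next). An embryo lay far above its litter for H2bc18 in embryo 6 of TS42 (8.6, against 8.16), H2ac22 in embryo 2 of TS113 (10.5, against 10.2) and Fry in embryo 5 of TS42 (7.45, against 6.42). High outliers were also En2 in embryo 2 of TS18 (4.72, against 3.93), Hbb-y in embryo 2 of TS125 (3.45, against 2.01) and Fos in embryo 6 of TS137 (4.86, against 4.36). Higher too were Ttr in embryo 8 of TS125 (11.8, against 11.5) and Eomes in embryo 3 of TS113 (7.81, against 7.48). Embryo 2 of TS125 stood apart for Depp1, Neurod6 and Hbb-y. No explanation was tested.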

How the results depend on the processing

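Over the genes shown, the alternatives kept the side of the threshold in 2730 gene and setting pairs, moved a gene past it in 45, ended a call in 34 and turned 0 directions. With no genotype term the F test called 132 in place of 84. The sex label gave 16 for TS42. Array spread gave 15 for TS42, 11 in euploid embryos and 1 in trisomic ones. Median centring and quantile normalization each gave 5 for TS137. Leaving out the lower quartile of signal gave 179 for the F test, 10 for TS11, 0 in trisomic embryos and 3 for the interaction. Leaving out the lower part under the median gave 348, with 15 for TS11, 219 for TS113, 11 for TS137, 153 for TS18, 83 for TS42, 74 in euploid embryos, 0 in trisomic ones and 4 for the interaction. A trended robust prior gave 358, with 11, 138, 13, 97 and 77 for TS11, TS113, TS137, TS18 and TS42, 304 in euploid embryos, 80 in trisomic ones and 19 for the interaction. Array weights gave 139, with 14 for TS11 and 112 for TS113. The ordinary F test gave 201, with 107 for TS113, 85 for TS18, 1 in euploid embryos and 11 for the interaction. At a threshold of 0.05 TS113 had 40, TS137 0, TS18 4, TS42 11 and the euploid test 8.

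With the embryo number as a replicate block the F test called 61, TS11 3, TS137 0, TS18 21 and TS42 14; the numbers do not pair the embryos. Without the 8 arrays against the sex label the F test called 35, TS113 16, TS137 1, TS18 26, TS42 10 and the trisomic test 1. Without TS18 embryo 7 TS137 had 0, and with Y-linked signal as covariate the euploid test had 11. Leaving out each litter gave 47 to 151 for the F test, 0 to 25 in euploid embryos, 0 to 4 in trisomic ones and 0 throughout for the interaction; leaving out single embryos gave 63 to 122. The histone count in TS113 lay between 14 and 31 in the planned settings. The causes were not tested.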

Other observations

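Of 138 probe sets for meninges, endothelium, pericytes, placenta and other tissues, limma called 0, against 0.378% of all probe sets, and 13 (9.42%) had an unadjusted p under 0.05, against 10.7% of all. The meningeal list had its highest mean in TS113 (6.23) and its lowest in TS18 (5.97). Its range of 0.257, against a standard deviation of 0.132 within litters, was wider than that of every stage and region list. Dcn, a proteoglycan of meningeal fibroblasts, had litter medians from 8.59 in TS18 to 9.00 in TS42, and in the contrast of TS18 with the others it fell by 0.401 (limma), without passing the F test (adjusted p = 0.17).

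Of 350 probe sets for cell state, 81 (23.1%) had an unadjusted p under 0.05, against 14.6% of probe sets at or above the median level. The cytosolic ribosomal proteins supplied 15 of 56, glycolysis 9 of 32 and the respiratory chain 20 of 71, the highest mean in each being that of TS137. The ribosomal list was lowest in TS113 (10.4) and highest in TS137 (10.5), a range of 0.158 against a standard deviation of 0.0802 within litters. Fos and Egr1, immediate early genes, had adjusted p of 0.91 and 0.90 (limma), and the clock gene Per1 0.65. Other members of their lists came nearer, Egr2 with an adjusted p of 0.24 and Arntl with 0.27 (limma). In these lists 5 of 26 immediate early and 4 of 18 clock probe sets had an unadjusted p under 0.05 (limma), and 0 passed in either.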
